A study of Ovis aries with 16 samples.

Results

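MIR181A-1 and MIR181A-2 are the 2 sheep gene copies that give the microRNA (miRNA) miR-181a. They are 2 of the 105 rows of a miRNA table, and were taken by name. The table covers 16 small RNA libraries from 8 female Suffolk sheep, taken from the left lobe of the liver, at its tip, and from vastus lateralis, a thigh muscle. For 4 of the sheep the dam was injected under the skin with 0.5 mg/kg/day of bisphenol A (BPA), a building block of plastics that can act on oestrogen receptors, in corn oil, between gestation days 30 and 90. For the other 4 the dam was given the oil without BPA. Tissue came from the adult daughters, about 21 months old, which had been fasted for 48 hours. All had received a pair of prostaglandin F2α injections 11 days apart, the later one 24 hours before sampling. Each sheep gave a liver and a muscle library, so every group (control liver, BPA liver, control muscle, BPA muscle) holds 4 animals, which are separate biological replicates. Sheep 902, 908, 924 and 928 were controls, and sheep 910, 918, 977 and 984 had been exposed.

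A miRNA is cut from a hairpin precursor, and its seed, a short stretch near the 5′ end, pairs with target messenger RNAs and lowers their output. miR-181a is made from the 5′ arm of hairpins at separate genomic loci, and the mature RNA from both is the same, whereas the opposite arms differ between the loci. It is known for setting the sensitivity of T cell receptor signalling and for B cell development, and in skeletal muscle for acting during myoblast differentiation, where it represses the homeobox protein Hox-A11. In RefSeq's sheep annotation (assembly ARS-UI_Ramb_v3.0), MIR181A-1 is a gene of 110 nt that lies in no other annotated gene. MIR181A-2, of 109 nt, lies inside both NR6A1, which codes for an orphan nuclear receptor, and the lncRNA locus LOC105611269. No row of the miRNA table is named for miR-181b, miR-181c or miR-181d, which share the seed of miR-181a. The build that the authors used is not given in the sources used here, so no coordinates are printed.

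The values are normalized counts, in which a read count has been divided by 1 size factor per library, and every value was a whole multiple of 1 step per library. That step is taken below as 1 read, and could stand for part of a read if shared reads were counted in part. miRNA reads per library numbered 94393 to 240815 in control livers, 578150 to 1383538 in BPA livers, 471691 to 559705 in muscle of controls and 596919 to 1044886 in muscle of BPA animals. The tissues carried their labels' markers. MIR133, a miRNA of striated muscle, took 43.6 to 57.4% of miRNA reads in muscle and 0.0332 to 0.217% in liver, and the liver miRNAs MIR148A and MIR194 together were at 40787 to 66109 in liver and 1311 to 2028 in muscle. Liver and muscle were scaled separately, so miR-181a is tested between the tissues only after rescaling. The marker sums here and below are on the deposited scale, which shifts muscle minus liver by -0.59 log2 units, and carry no test between tissues.

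The rows of MIR181A-1 and MIR181A-2 hold nearly the same number of reads in every library. In control livers 902, 908, 924 and 928 MIR181A-1 had 616, 2618, 2310 and 852 reads, and MIR181A-2 had 616, 2621, 2303 and 849. In BPA livers 910, 918, 977 and 984 the counts were 11567, 3925, 4646 and 4236 for MIR181A-1 and 11628, 3923, 4631 and 4216 for MIR181A-2. The copies thus differed by 0 to 61 reads in liver, in either direction. In control muscle of the same sheep, in the same order, MIR181A-1 had 4166, 4469, 3890 and 3910 reads and MIR181A-2 had 4237, 4559, 3960 and 3975. In BPA muscle the counts were 6411, 9025, 7855 and 7152 against 6512, 9079, 7899 and 7312. MIR181A-2 was ahead by 44 to 160 reads in all 8 muscle libraries.

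If each read of a shared sequence had been given at random to 1 copy, the difference would have had a standard deviation of 35.1 to 152 reads in the livers and 88.6 to 135 in muscle. The observed differences were 0 to 0.401 of these standard deviations in liver and 0.351 to 1.33 in muscle. Among the 780 pairs that the 40 miRNAs with at least 50 reads in each library form, the copies were the closest, at most 2.24% apart in any library, and the next pair was up to 60.8% apart. MIR29B-1 and MIR29B-2, another pair of copies with 12 to 99 reads, had equal counts in all 16 libraries. The rule for reads that align to several places is not given in the sources used here, and whether a shared read was counted whole or in part at each copy cannot be told from the values. The 2 rows are therefore read below as 1 measurement of miR-181a given in duplicate, and MIR181A-2 is described with MIR181A-1 beside it.

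In liver, miR-181a was not distinguishable between BPA and control animals. The deposited normalized counts of MIR181A-2 were 2155, 3881, 3431 and 2690 in control livers 902, 908, 924 and 928, and 3086, 2331, 2254 and 2267 in BPA livers 910, 918, 977 and 984. The groups overlapped, with control liver 902 the lowest of all 8 and control livers 908 and 924 the highest. The means were 3039 ± 767 and 2484 ± 402 (SD, n = 4 each). The log2 fold change of MIR181A-2 was -0.27 ± 0.23 (SE), a fold of 0.831 with a 95% interval of 0.587 to 1.18 (limma, Benjamini-Hochberg adjusted p = 0.518 over 78 miRNAs). MIR181A-1 gave -0.27 ± 0.23 with the same adjusted p (limma). By comparison 9 of the 78 miRNAs, 11.5%, passed the threshold of 0.05 in liver, 5 of them higher with BPA (6.41%) and 4 lower (5.13%). The groups did not overlap for 5 miRNAs with BPA higher (6.41%) and for 8 with BPA lower (10.3%), and the median log2 fold change over all 78 was 0.05.

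Library codes in the labels put control liver 902 beside BPA livers 977 and 984 (codes up to 79), while the other codes hold livers of 1 treatment only. Within those 3 livers the log2 fold change of MIR181A-2 was 0.07, the opposite sign (limma adjusted p = 0.644, with a lone control that is assumed to vary like the BPA livers). Without control livers 902 and 928, the shallowest libraries, it was -0.57 (limma adjusted p = 0.223, chosen after the values were seen). It was -0.42 without control 902 and -0.14 without control 908 (limma adjusted p = 0.232 and 0.814).

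In muscle, the deposited miR-181a values of the BPA animals all lay above those of the controls, but the difference did not pass the test. MIR181A-2 was at 5330, 5355, 5207 and 5138 in control muscle 902, 908, 924 and 928, and at 5417, 5607, 6440 and 6877 in BPA muscle 910, 918, 977 and 984. The controls were close together, BPA animals 910 and 918 lay just above them, and 977 and 984 lay farther away. The means were 5258 ± 103 and 6085 ± 690 (SD, n = 4 each). For MIR181A-1 the ranges were 5054 to 5249 in controls and 5333 to 6726 in BPA animals. On the deposited scale the log2 fold change was 0.20 ± 0.12 for MIR181A-2 and 0.21 ± 0.12 for MIR181A-1 (SE, limma adjusted p = 0.714 for both over 70 miRNAs). For MIR181A-2 this is a fold of 1.15 with a 95% interval of 0.963 to 1.38.

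No miRNA passed in muscle by limma, edgeR or DESeq2 (0.0% of 70), where 3 had an unadjusted limma p under 0.05 and the median log2 fold change was 0.01. On the deposited scale, groups that do not overlap, with BPA higher, were found for 3 of the 70 miRNAs (4.29%), namely both miR-181a rows and MIR125B, and with BPA lower for 2 (2.86%). Control muscle carries library codes 73 to 76 and BPA muscle codes from 77 upwards. Here the order of the codes cannot be told apart from treatment. Within codes up to 79, which leaves out BPA animal 984, the log2 fold change of MIR181A-2 was 0.14 ± 0.12 (SE, limma adjusted p = 0.823).

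**Figure D1:**
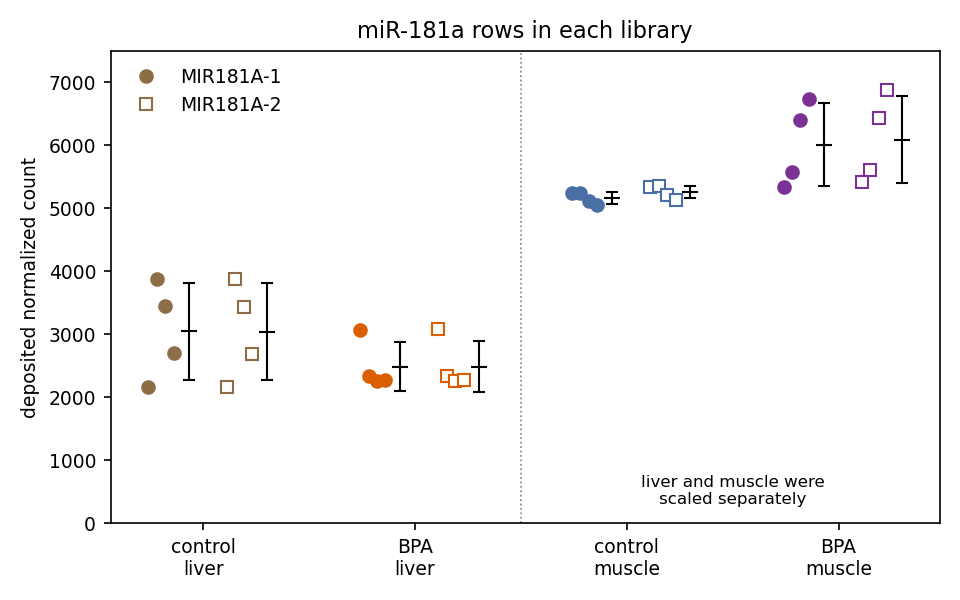
Deposited normalized count (y axis, from 0) of MIR181A-1 (filled circles) and MIR181A-2 (open squares) in each of the 16 libraries by tissue and treatment, with mean ± SD (n = 4) as bars. The copies trace each other, the livers overlap between treatments, and the BPA muscles (5417 to 6877 for MIR181A-2) sit above the control muscles (5138 to 5355).

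The opposite signs in liver and muscle were tested as a difference of the BPA effects. Muscle minus liver, the BPA effect on MIR181A-2 differed by 0.51 ± 0.25 log2 units (SE, 16 libraries), with a 95% interval of -0.0079 to 1.04 (limma adjusted p = 0.285 over 75 miRNAs). For MIR181A-1 it was 0.52 ± 0.25, with an interval of 0.0024 to 1.04 before adjustment (limma adjusted p = 0.285). In this comparison 2 of 75 miRNAs, 2.67%, passed.

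Between the tissues, miR-181a was higher in muscle than in liver, by an amount that depends on the scale. After median-of-ratios rescaling over all 16 libraries, MIR181A-2 was at 1769 to 3258 in the 8 livers and at 5794 to 8378 in the 8 muscles, so the tissues did not overlap, and muscle exceeded liver in 8 of 8 animals. The means were 2260 ± 515 and 6982 ± 863 (SD, n = 8). The log2 difference was 1.65 ± 0.12 (SE), a fold of 3.13 with a 95% interval of 2.61 to 3.75 (limma adjusted p = 4.97e-10). For MIR181A-1 the log2 difference was 1.62 ± 0.12 (limma adjusted p = 5.49e-10). Of the 75 miRNAs tested, 27 were higher in muscle (36.0%) and 30 lower (40.0%), and 21 of the 75 (28.0%) had all muscles above all livers.

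On another scale the difference did not pass the test. Normalised to the total miRNA reads of each library (RPM), MIR181A-2 was at 6526 to 10884 in liver and 7996 to 12250 in muscle. On that scale the tissues overlapped, muscle was higher in 6 of 8 animals, and the log2 difference was 0.27 (limma adjusted p = 0.0530). The reads of MIR133 count in that total. With MIR133 left out of the total, a scale chosen after the values were seen, the log2 difference was 1.35 (limma adjusted p = 6.56e-09) and muscle was again higher in 8 of 8 animals. On the deposited scale it was 1.06. Set against the median miRNA of the same scale, the difference of MIR181A-2 was 1.79 after rescaling, 1.80 in RPM, 1.91 in RPM without MIR133 and 1.79 as deposited. A change of scale moves all miRNAs of a comparison almost alike. These values are therefore close by construction and are no separate evidence for a tissue difference. In whole tissue, a different share of cells that carry the miRNA and a different amount per cell cannot be told apart.

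The balance of the copies differed between the tissues by a small amount. The share of MIR181A-1 in the summed reads of both copies does not depend on any size factor. It was 50.03 ± 0.06% in control livers, 50.02 ± 0.11% in BPA livers, 49.56 ± 0.04% in control muscle and 49.69 ± 0.20% in BPA muscle (SD, n = 4 each). In the 8 livers it ran from 49.87 to 50.12%, and in the 8 muscles from 49.45 to 49.86%, below every liver. Muscle was 0.403 percentage points lower (exact permutation over 16 libraries, two-sided, p = 1.55e-04, the smallest that 12870 assignments can give, and 6.22e-04 after adjustment over 4 tests of the share). That permutation does not use the pairing of liver and muscle by animal. The share was lower in muscle in 8 of 8 animals (exact sign-flip p = 0.0078, the smallest possible with 8 pairs, adjusted 0.03125).

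BPA and control animals did not differ detectably in this share. The difference was -0.0138 percentage points in liver (exact permutation p = 0.943, adjusted 0.943) and 0.137 in muscle (exact p = 0.286, adjusted 0.381), and the tissues' BPA effects differed by 0.150 (exact p = 0.200, adjusted 0.381). In muscle the excess of MIR181A-2 over MIR181A-1 was 1.66 to 2.01% of the MIR181A-1 reads in the 4 controls. It was 1.58% in BPA animal 910, 0.598% in 918, 0.560% in 977 and 2.24% in 984. BPA animal 984 thus had the highest excess of all 8 and the other BPA animals the lowest. Without 984 the difference in the share was 0.218 percentage points in muscle and 0.265 between the tissues (exact p = 0.0286 for both, adjusted 0.0381). That p is the smallest that the test can give once an animal is left out. Leaving out any other animal brought no call, and 984 is singled out here with the values known.

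**Figure D2:**
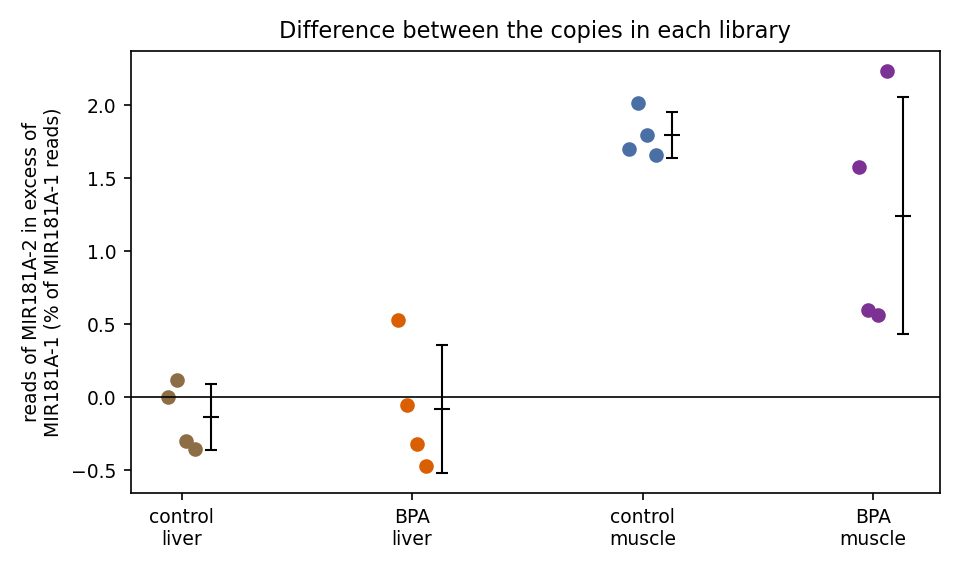
Excess of MIR181A-2 over MIR181A-1 reads, as a percentage of MIR181A-1 reads (y axis), in each library by group, with mean ± SD (n = 4) as bars and a line at 0. Livers scatter on both sides of 0 and all 8 muscles lie above it, with BPA muscle split between 0.560 and 0.598% and 1.58 and 2.24%.

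A row of the lncRNA table held slightly more reads than the miR-181a rows in every library. LOC105611269, the locus that holds MIR181A-2 in the gene table, had 644, 2708, 2450 and 889 reads in control livers 902, 908, 924 and 928, and 12920, 4327, 4986 and 4451 in BPA livers 910, 918, 977 and 984. In muscle it had 4133 to 4757 reads in controls and 6871 to 9484 in BPA animals. The count of MIR181A-2 came to 90.0 to 96.8% of the locus's count in liver and 94.6 to 96.3% in muscle. The excess over MIR181A-2 was 3.32 to 6.38% in control livers, 5.57 to 11.1% in BPA livers, and in muscle 3.89 to 4.44% in controls and 4.08 to 5.70% in BPA animals, and the treatments overlapped in both tissues. Reads of the miRNA and of the lncRNA itself cannot be separated in this row. The protein-coding gene nearest to MIR181A-1, LOC105613169, is also a row of the lncRNA table, with 2 reads over all 16 libraries.

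On the scale of the lncRNA table, this row gave another BPA difference than on the scale of the miRNA table. LOC105611269 was at 1008, 3942, 3168 and 1482 in control livers 902, 908, 924 and 928 and at 4146, 3422, 3374 and 3753 in BPA livers 910, 918, 977 and 984. Control livers 902 and 928 lay lowest, and control liver 908 lay among the BPA livers. The log2 fold change was 0.82 ± 0.45 (SE, limma adjusted p = 0.166 over 124 lncRNA loci, of which 35.5% passed), against -0.27 for MIR181A-2. With the size factors of the miRNA table applied to the reads of the lncRNA table, chosen after the values were seen, LOC105611269 was at -0.21 by limma, at an adjusted p of 0.461. The count of MIR181A-2 comes to most of the locus's count in each library, so shared size factors bring these rows close by construction. Without control livers 902 and 928 LOC105611269 was at 0.05 on its own scale (limma adjusted p = 0.894). With the library-code range as a covariate the log2 fold change was 1.82 (limma adjusted p = 0.0235). That value rests on a lone control, liver 902, the shallowest library, against BPA livers 977 and 984, and its spread comes from the other livers, so it has no replicate check.

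In muscle, LOC105611269 was at 5682 ± 339 in controls and 5821 ± 38 in BPA animals (SD, n = 4), a log2 fold change of 0.04 ± 0.12 (SE, limma adjusted p = 0.868 over 151 loci, of which 5.3% passed). The size factors of the miRNA table gave 0.21 (limma adjusted p = 0.500), beside 0.20 for MIR181A-2, again close by construction. The BPA effects of the tissues differed by -1.11 ± 0.47 on the lncRNA scale (limma adjusted p = 0.0685, 39.4% of 142 loci passed) and by 0.47 with the miRNA size factors (adjusted p = 0.224), where MIR181A-2 was at 0.51. Without animal 908 the former was -1.43 and passed (limma adjusted p = 0.0266). Muscle exceeded liver by 0.66 ± 0.23 log2 units after rescaling within the lncRNA table (limma adjusted p = 0.0192, 67.6% of 142 loci passed). This call was lost without animal 928 (0.58, limma adjusted p = 0.0654), with edgeR on recovered reads (0.53, adjusted p = 0.0544), and with no filter on low values (adjusted p = 0.0714). On the miRNA size factors the difference was 1.62 (limma adjusted p = 2.77e-08), and in RPM of the lncRNA table it was -2.22, the opposite direction (adjusted p = 8.20e-11). The locus took 3.28 to 6.51% of lncRNA reads in liver and 0.772 to 1.14% in muscle.

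**Figure D3:**
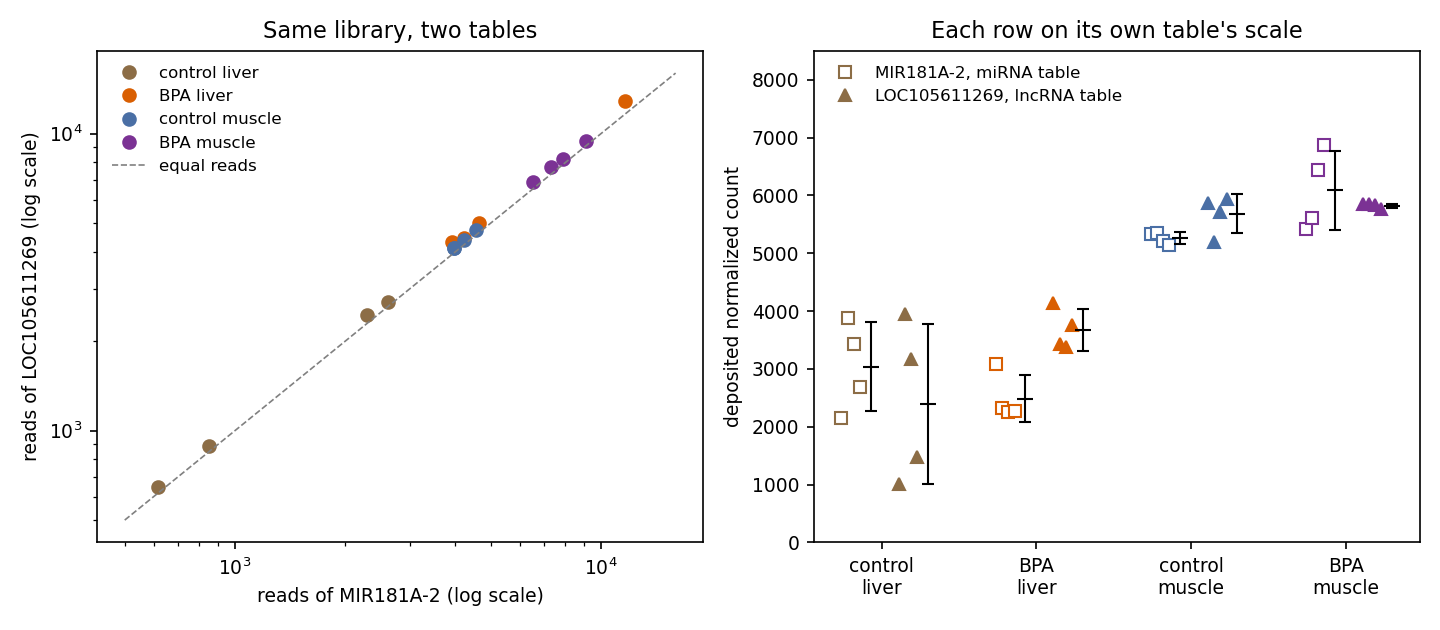
Left, reads of LOC105611269 against reads of MIR181A-2 in each library, both on log axes, with a dashed line at equal reads. Right, the deposited normalized counts of MIR181A-2 (open squares, miRNA table) and LOC105611269 (triangles, lncRNA table) by group with mean ± SD (n = 4). All 16 points on the left lie just above the line, while on the right BPA livers are lower on average than controls for MIR181A-2 (2484 against 3039) and higher for LOC105611269 (3674 against 2400).

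**Figure D4:**
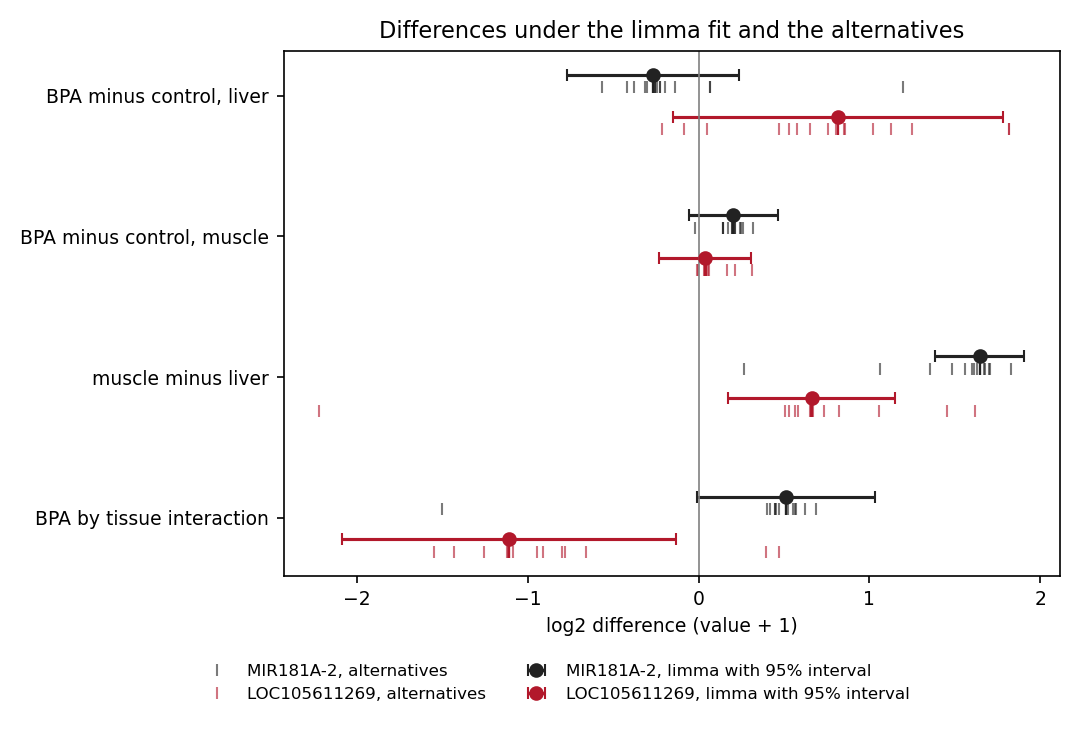
Log2 differences (x axis) of MIR181A-2 and LOC105611269 in the 4 comparisons, as limma estimates with 95% intervals (points and bars) and as estimates under each alternative setting (ticks). For BPA in liver the estimates are -0.27 and 0.82, and for muscle against liver 1.65 and 0.66.

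The miRNAs whose values moved most like miR-181a over the 16 libraries, after each tissue's mean was removed, were MIR150, MIRLET7B and MIR16B, of 74 compared. Apart from the other copy (Pearson r of 0.9996), MIR181A-2 had r of 0.77 with MIR150, 0.73 with MIRLET7B and 0.59 with MIR16B. Within the 8 livers r with MIR150 was 0.80, and r with MIRLET7B was higher at 0.84. Within the 8 muscles r with MIR150 was 0.65, and other miRNAs were higher, MIR16B (0.78) and MIR125B (0.76) among them. Over the 16 libraries MIR181A-1 had MIR150, MIRLET7B and MIR16B in the same order, at 0.76, 0.71 and 0.59. These correlations describe libraries that share size factors and depth, and carry no test. MIR150, a miRNA of mature lymphocytes, was at 199, 549, 396 and 219 in control livers 902, 908, 924 and 928 and at 493, 363, 276 and 231 in BPA livers 910, 918, 977 and 984. As with miR-181a, control liver 908 was highest and control liver 902 lowest, and BPA liver 910 led its group. In muscle MIR150 was at 1368 to 2028 in controls and 1485 to 2760 in BPA animals, the highest again in BPA animal 984. Its lowest muscle was control 902, whereas the lowest for MIR181A-2 was control 928.

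MIR150 is the one leukocyte marker of 5 listed that is a row of the table. It was also higher in muscle, by 3.10 log2 units after rescaling. The bile duct markers MIR200A, MIR200B and MIR200C summed to 482 to 1367 in control livers and 1504 to 1965 in BPA livers, and to 36.6 to 103 in muscle. MIR200B alone was higher in BPA livers (174 to 453 in controls and 980 to 1395 with BPA), while MIR200A and MIR200C overlapped between the groups. The endothelial marker MIR221 was at 345 to 730 in control livers and 435 to 703 in BPA livers. The smooth muscle and fibroblast markers MIR143 and MIR199A summed to 26709 to 40182 in control livers and 27447 to 52968 in BPA livers. In muscle that sum was 15907 to 28471 in controls and 7999 to 21246 in BPA animals. The muscle marker MIR133 was at 115 to 717 in control livers and 122 to 574 in BPA livers. No erythroid or neuronal marker matched a row. The part of any of these cell types in the miR-181a values was not tested.

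Related miRNAs were described by lists. Of 18 listed miRNAs of muscle differentiation, the process in which miR-181a acts in myoblasts, 7 were measured and tested. The 7 include MIR29B-1 and MIR29B-2, which had equal counts in every library and so are not separate measurements. The metabolism list below holds the same pair. In BPA livers 1 of the 7, MIR125B, was higher (log2 fold change 1.16, limma adjusted p = 0.0361) and 0 were lower (median log2 fold change -0.05, against 0.05 for all miRNAs). Among all miRNAs tested in liver, 6.41% were higher with BPA and 5.13% lower. In BPA muscle 0 of the 7 passed (median -0.22, the value of that pair, against 0.01), where 0.0% of all 70 miRNAs tested passed. Muscle held more of 3 of the 7 than liver, among them MIR133 by 11.19 and MIR125B by 1.96 log2 units, and less of 0 (36.0% of all miRNAs tested were higher and 40.0% lower). Of 9 measured miRNAs of lipid, insulin and mitochondrial metabolism, 0 passed with BPA in either tissue (medians 0.11 in liver and -0.18 in muscle). Among all miRNAs tested 11.5% passed with BPA in liver and 0.0% in muscle. Of the 9, 1 was higher and 1 lower in muscle than in liver, against 36.0% and 40.0% of all miRNAs. Of 4 measured lymphocyte miRNAs other than miR-181, 3 were tested, and 0 passed with BPA (medians 0.07 and 0.05). The shares of all miRNAs that passed with BPA were again 11.5% in liver and 0.0% in muscle. MIR150 was higher in muscle than in liver, and MIR17 and MIR21 were lower, at -0.55 and -1.94 log2 units. For the BPA by tissue interaction 0 members of these lists passed, beside 2.67% of all 75 miRNAs tested. No miR-181b copy, the usual cluster partner of miR-181a, was a row.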

How the data were processed

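Small RNA from 16 libraries was measured. Cutadapt 3.2, STAR 2.6.0c and featureCounts 1.6.1 are listed, with no role, in the submitters' processing notes. Not given in the sources used here are the genome build, annotation, rule for multiply aligned reads and normalization tool. The deposited normalized counts are a signal: reads per row over a size factor of the library. All values (100%) were whole multiples of 1 step per library, within 0.001, a step taken as 1 read. Against the mean profile of its tissue, each library's median ratio was the same, so size factors were set in each tissue alone, which shifts muscle minus liver by -0.59 log2 units among miRNAs.

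BPA was tested within each tissue with limma 3.58.1 (R 4.3.3, mean-variance trend, two-sided) on log2(deposited value + 1), a scale that understates changes of low miRNAs. Muscle minus liver and the interaction used reads rescaled by median of ratios over 16 libraries, in 4 groups. Rows with a mean value of at least 5 were tested, with Benjamini-Hochberg adjustment over the table and a threshold of 0.05. Copy shares were tested with exact permutations. edgeR 4.0.16 and DESeq2 1.42.0 on recovered reads, other scales, filters and pseudocounts, left-out libraries, library codes and the animal as a block were alternatives. Of the fits, only that of BPA in liver miRNAs was tested on simulated data, with limma, edgeR and DESeq2. The members, lists and tests were chosen with earlier results of these data known. Named miRNAs are the members, the miR-181 family, the 3 most correlated, genes at the members' loci, and up to 4 members of each list. Shared seeds could not be searched, as no sequences were used here.

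Per the labels, the number pairs liver and muscle of 1 sheep. Their deviations from the group means correlated by -0.68 to 0.41 across 75 miRNAs, and 0 of 8 livers were closest to their own muscle. Within groups, all pairs of libraries differed by more than sampling noise (chi-square per degree of freedom at least 18.2). MIR181A-2 had 616 to 2621 reads in control livers and at least 3923 in the others, a counting error of 4.03% at most. Its spread between animals was 25.2% in control livers, 16.2% in BPA livers and 11.3% in BPA muscle. In control muscle the spread was 1.955%, little more than the counting error of 1.48 to 1.59% there.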

Additional observations from a re-analysis of the deposited data

Results flagged for a closer look

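BPA liver 910 stood apart from the other BPA livers, at 3085.71 for MIR181A-2 and 3069.53 for MIR181A-1, while the other 3 lay at 2254 to 2331 and 2261 to 2332. Both rows hold nearly the same reads, so this is 1 observation, and chance sets a sample apart in this way in about 1 in 20 groups. This library is also the deepest, with 1383538 miRNA reads. Without it the log2 fold change of MIR181A-2 in liver was -0.38 (limma adjusted p = 0.368; 0.0177 to 0.918 over all alternatives).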

How the results depend on the processing

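Over all results, 353 values were recomputed under alternatives. Of these 314 kept their direction and their side of the threshold, 25 changed sign, and among the rest 6 lost and 8 gained a call. A value that changed sign is counted only as such, also where it passed the threshold. With 1 size factor per library over the 4 tables, the median miRNA itself moved to 1.52 for BPA in liver, -0.21 in muscle and -1.98 for the interaction. There MIR181A-2, MIR181A-1 and their sum were at 1.20, 1.20 and 1.20 in liver (limma adjusted p = 0.0177, 0.0177 and 0.0123), at -0.022, -0.014 and -0.018 in muscle and at -1.50, -1.49 and -1.50 for the interaction (limma adjusted p = 0.0053, 0.0055 and 0.0040). Relative to the median, MIR181A-2 was at -0.32 in liver and 0.19 in muscle both on that and on the deposited scale, and for the interaction at 0.48 on that scale and 0.52 on rescaled reads. A change of scale moves all miRNAs of a comparison almost alike, so these values are close by construction. With library codes as a covariate or restricted to codes up to 79, the liver values were 0.069, 0.075 and 0.072. In RPM of the miRNA table the muscle minus liver difference no longer passed, at 0.27, 0.24 and 0.26. LOC105611269 changed sign in RPM of the lncRNA table (-0.082 in liver, -2.22 for muscle minus liver, 0.39 for the interaction), with the miRNA size factors (-0.21 and 0.47 for liver and the interaction), with 1 size factor over the 4 tables in muscle (-0.011) and, over left-out animals, in muscle (-0.0056 to 0.059). The locus gained a call with 1 size factor over the 4 tables in liver (1.25, limma adjusted p = 0.0417) and for the interaction (-1.55, adjusted p = 0.0189), and for the interaction among loci with a mean of at least 50 (-1.11, adjusted p = 0.0387). In liver 3 of 21 alternatives gained a call for the locus, the library-code covariate among them. For the interaction edgeR called 1 miRNA higher and 0 lower (limma 1 and 1), and 21 lncRNA loci higher and 16 lower (limma 24 and 32). The cause of these changes was not tested beyond the change of scale itself.

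The sum of the copies, which may count shared reads more than once, gave log2 differences of -0.27, 0.21, 1.64 and 0.52 for liver, muscle, muscle minus liver and the interaction. Leaving out 1 animal, the copy share differed by -0.0465 to 0.0368 percentage points in liver, 0.0804 to 0.218 in muscle, -0.438 to -0.365 between tissues and 0.0949 to 0.265 for the interaction. Leaving out 1 library or animal, MIR181A-2 stayed at -0.42 to -0.14, 0.14 to 0.26, 1.56 to 1.70 and 0.40 to 0.69, and no call of it changed. With the animal as a replicate block, muscle minus liver was 1.65 for MIR181A-2 (limma adjusted p = 3.62e-07) and the interaction 0.51 (adjusted p = 0.471), and no call changed for either copy, their sum, the locus or the copy share.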

Other observations

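Reads of LOC105611269 in excess of the count of MIR181A-2, a plain subtraction of the rows, came to 28, 87, 147 and 40 in control livers 902, 908, 924 and 928 and to 1292, 404, 355 and 235 in BPA livers 910, 918, 977 and 984. In muscle there were 158 to 198 such reads in controls and 322 to 417 in BPA animals. Normalised to total miRNA reads (RPM) these were 297 to 658 and 366 to 934 in control and BPA livers, and 335 to 355 and 388 to 699 in control and BPA muscle. The values were not tested. Since it is not known how shared reads were counted in either row, the difference cannot be read as a separate RNA of the locus.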
